A study of Mus musculus with 12 samples.

Results

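The regions described here are stretches of mouse chromatin that carried an H3K4me1 peak in all 4 H3K4me1 libraries of the study and lay deep inside a protein-coding gene. They were found by merging the 4 peak lists wherever peaks shared at least 1 bp, on the 15 autosomes other than 4, 10, 16 and 19. A merged region was kept when all 4 lists held a peak in it, when it lay wholly within the span of a protein-coding gene, and when it was more than 10 kb from the start and end of every annotated gene (mm10 coordinates, RefSeq). The regions were thus chosen by the measured H3K4me1 peaks of all 4 libraries and by position. The rule gave 6683 constant deep regions, 8.89% of the 75214 merged regions and 30.3% of the 22021 regions that had a peak in all 4 lists. The bases of a gene more than 10 kb from every gene end are called its interior below, and a gene that holds at least 1 of the 6683 regions is called a host.

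The libraries were made by Cut & Run, in which an antibody tethers a nuclease to chromatin and the released DNA fragments are sequenced, from cultured mouse embryonic fibroblasts. The cells were either knocked out for Fbxw7 (KO) or wild type (WT), with 2 libraries per genotype for each of 3 antibodies, against H3K4me1, H3K4me3 and MLL4. The labels name no knockout allele, no clone and no embryo, and do not say if a group's 2 libraries were grown as separate cultures, so p-values here measure only the spread between these libraries, which may be technical. Monomethylation of lysine 4 on histone H3 is found at enhancers, both active and poised, and many enhancers of mammalian genes lie in introns. MLL4, the product of Kmt2d, and its relative MLL3 (Kmt2c) are the main enzymes that place the mark at enhancers, whereas H3K4me3 marks active promoters. Fbxw7 is the subunit of an SCF ubiquitin ligase that recognises its substrates, which include cyclin E, Myc, Notch and SREBP proteins.

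The H3K4me1 libraries held 13627038 and 12611409 fragments (KO) and 12607690 and 11604131 fragments (WT) after duplicate filtering, with 53125 to 62071 peaks per list. The H3K4me3 libraries were shallower and less even, at 5519477 and 5938102 fragments with 10406 and 11289 peaks in KO and 11319701 and 6185767 fragments with 17469 and 16088 peaks in WT. Of 16 fibroblast marker genes, 12 had an H3K4me3 peak within 1 kb of a gene end in at least 1 library, and Col6a3, Pdgfrb and Thy1 had one in all 4, while Fap, Pdgfra, Postn and Prrx1 had none. The counts were 4 of 6 for neural markers and 1 of 5 each for haematopoietic, endothelial and epithelial markers. For myogenic markers the count was 0 of 5. The neural marker Syt1 also had a peak in all 4 H3K4me3 libraries. Among all protein-coding genes, 35.9% had such a peak in all 4 libraries and 44.1% in none. The marker counts were not tested against these shares.

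For a small set of the regions the DNA sequence itself can be shown, because an annotated transcript begins inside them. Of 891 starts in RefSeq's promoter table (GRCm38.p6, the coordinates of mm10) that lay more than 10 kb from every gene end, 23 fell inside a constant deep region, 1 in each of 23 regions. Such internal starts belong to shorter isoforms of the host or to a gene annotated within it. The table holds the 250 bases before and the 50 bases after each start. Printed here, 5′ to 3′ on the strand of the gene, are the windows of the 5 regions that also had an H3K4me3 peak in at least 1 library, followed by the 3 with the best H3K4me1 rank among those that had none. Capitals mark CG dinucleotides, the sites of DNA methylation, which cluster at most active promoters.
Rin2: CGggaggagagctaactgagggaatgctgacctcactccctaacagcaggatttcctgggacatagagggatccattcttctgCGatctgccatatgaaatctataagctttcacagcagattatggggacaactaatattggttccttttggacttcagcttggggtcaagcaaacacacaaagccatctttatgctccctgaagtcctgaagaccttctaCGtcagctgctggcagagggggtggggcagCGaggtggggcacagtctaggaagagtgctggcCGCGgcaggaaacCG
Nacc2: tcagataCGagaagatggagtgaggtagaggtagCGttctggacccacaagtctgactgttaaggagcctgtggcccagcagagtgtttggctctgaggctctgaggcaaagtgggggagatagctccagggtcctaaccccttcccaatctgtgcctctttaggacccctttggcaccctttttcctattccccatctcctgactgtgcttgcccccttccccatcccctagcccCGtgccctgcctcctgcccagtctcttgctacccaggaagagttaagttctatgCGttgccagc
Zfp385b: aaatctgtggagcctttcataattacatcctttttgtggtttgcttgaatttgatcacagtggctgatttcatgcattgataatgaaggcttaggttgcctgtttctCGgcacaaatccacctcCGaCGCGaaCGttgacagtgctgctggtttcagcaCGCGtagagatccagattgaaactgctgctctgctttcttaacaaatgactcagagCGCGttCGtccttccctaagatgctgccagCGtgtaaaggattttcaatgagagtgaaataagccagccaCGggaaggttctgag
Filip1: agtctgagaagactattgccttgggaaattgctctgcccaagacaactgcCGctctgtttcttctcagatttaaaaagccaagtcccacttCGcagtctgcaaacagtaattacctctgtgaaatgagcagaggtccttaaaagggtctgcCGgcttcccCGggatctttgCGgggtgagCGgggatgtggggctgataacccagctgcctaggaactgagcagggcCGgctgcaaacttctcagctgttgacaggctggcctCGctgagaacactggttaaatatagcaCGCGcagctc
Pacsin2: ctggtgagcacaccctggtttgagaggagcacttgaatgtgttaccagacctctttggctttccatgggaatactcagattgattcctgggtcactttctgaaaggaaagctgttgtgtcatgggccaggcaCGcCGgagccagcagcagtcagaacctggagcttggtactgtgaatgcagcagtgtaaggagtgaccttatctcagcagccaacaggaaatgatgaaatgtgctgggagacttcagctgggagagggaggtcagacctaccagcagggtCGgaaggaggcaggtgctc
Speg: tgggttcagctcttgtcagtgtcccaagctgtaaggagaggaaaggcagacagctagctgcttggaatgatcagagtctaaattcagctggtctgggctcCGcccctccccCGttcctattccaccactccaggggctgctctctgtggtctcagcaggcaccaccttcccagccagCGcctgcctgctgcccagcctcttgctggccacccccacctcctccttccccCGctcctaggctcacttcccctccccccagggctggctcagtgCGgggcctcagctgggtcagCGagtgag
Mylk3: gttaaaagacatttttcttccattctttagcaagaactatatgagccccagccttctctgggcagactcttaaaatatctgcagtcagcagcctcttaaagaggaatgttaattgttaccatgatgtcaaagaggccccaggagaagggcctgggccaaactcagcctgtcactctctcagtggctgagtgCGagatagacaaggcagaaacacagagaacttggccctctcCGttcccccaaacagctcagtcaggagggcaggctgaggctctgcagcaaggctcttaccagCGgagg
Ppfibp2: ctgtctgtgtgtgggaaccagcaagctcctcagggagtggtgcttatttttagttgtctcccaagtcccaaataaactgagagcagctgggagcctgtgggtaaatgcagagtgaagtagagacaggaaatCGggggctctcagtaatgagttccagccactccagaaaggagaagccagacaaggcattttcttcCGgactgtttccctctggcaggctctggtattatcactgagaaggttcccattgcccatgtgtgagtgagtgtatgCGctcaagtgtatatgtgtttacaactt
The windows lie at chr2:145785866-145786165 (plus strand), chr2:26092347-26092646 (minus), chr2:77703223-77703522 (minus), chr9:79977833-79978132 (minus), chr15:83432801-83433100 (minus), chr1:75399835-75400134 (plus), chr8:85365275-85365574 (minus) and chr7:107665228-107665527 (plus).

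CG dinucleotides were sparse in most of these windows. Zfp385b, which encodes a zinc finger protein, had 12 CG dinucleotides in its 300 bases and Filip1, which encodes a protein that binds filamin A, had 10. Rin2, which encodes an exchange factor for Rab5, had 7, and Speg, which encodes a muscle kinase, had 6. Pacsin2, which encodes a membrane-bending protein, Mylk3, which encodes a cardiac myosin light chain kinase, and the liprin gene Ppfibp2 had 3 each, and Nacc2 had 4. Over all 23 windows the median was 3 CG dinucleotides, against 6 in the 823 internal starts outside every H3K4me1 region and 7 in the 25572 start windows of the 15 autosomes. The median GC content was close in the 3 sets, at 50%, 51.3% and 53.0%. The AP-1 motif TGANTCA, read on both strands, was present in 3 of the 23 windows (13.0%) and in 7.91% of all start windows. The TEAD motif GGAATG was present in 4 (17.4%), against 14.5% of all start windows, and the TATA motif TATAAA in 3 (13.0%), against 13.5%. None of the 3 motifs contains another, and a match describes the window and not a bound site.

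Few of these starts had an H3K4me3 peak over the start itself. In KO, 0 and 0 of the 23 starts had an H3K4me3 peak over them, against 1 and 2 in WT. Among the internal starts outside every H3K4me1 region the shares were 4.62% and 6.08% in KO and 25.3% and 21.7% in WT. Counted over the whole region, 5 of the 23 had an H3K4me3 peak in at least 1 library, against 5.15% of all 6683 regions. This difference was not tested. Rin2 and Nacc2 were the regions with an H3K4me3 peak in both WT libraries, Zfp385b and Pacsin2 had one in WT replicate 1 alone, and Filip1 in WT replicate 2 alone. Only 2.58% of the internal starts lay inside constant deep regions, which covered 1.76% of the interior bases, and 0.344% of the regions held such a start.

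The 6683 regions were about as long as constant H3K4me1 regions elsewhere and spread over a wide range of depths within genes. Their median length was 1229 bp, with the middle of the distribution between 987 and 1534 bp, against 1228 bp for the 5635 constant regions more than 10 kb outside any gene span and 1189 bp for the 2293 constant regions within 1 kb of a gene end. The median distance to the nearest gene end was 31.8 kb and the largest was 637.8 kb. The distance to the next constant deep region had a median of 19.3 kb, and 30.1% of the regions had another within 10 kb. The gene table gives the span of each gene but no exons, so introns could not be told from exons at these positions. Of all 22021 constant regions, 10641 (48.3%) lay inside the span of a protein-coding gene.

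Deep inside genes, constant regions were about as common as over the mark as a whole. Of the 21087 merged H3K4me1 regions that met the position rule, 34.3% had a peak in 1 list, 19.4% in 2, 14.7% in 3 and 31.7% in all 4. Over all 75214 merged regions 29.3% had a peak in all 4, so the share was close to that of the mark as a whole. Median lengths were 351 bp for deep regions of 1 list, 635 bp for 2, 852 bp for 3 and 1229 bp for 4. A merged region spans the peaks of every list that joined it, so its length rises with the number of lists by the way it is built. A longer merged region also offers more room for a peak of each list. These values are given with no test because the peak lists chose the regions.

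Regions lay close to the limit of 10 kb on both sides of it. Among the regions nearest to it on the inside were one in Sox5, which encodes a SOX transcription factor, at 10009 bp from a gene end and one in Shq1 at 10017 bp. Just outside lay regions in Zfp395 and Il23r, each at 9999 bp, and in Aspscr1 at 9991 bp. The Sox5 region had fold enrichments of 6.07 and 5.67 in KO and 6.73 and 7.02 in WT, and the Il23r region had 6.50 and 6.28 in KO and 6.39 and 5.35 in WT. The weakest peaks behind a constant call lay in Prkca, Hectd4 and Rnf150, whose lowest −log10 q values over the 4 lists were 2.02, 2.04 and 2.06, beside the authors' cutoff at a q of 0.01.

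The regions were distributed unevenly among genes, and longer genes held more. Of 7266 protein-coding genes with an interior, 2401 (33.0%) were hosts. Among these, 1126 genes held 1 region, 876 held 2 to 4, 299 held 5 to 9 and 100 held 10 or more. Those 100 genes carried 1392 of the regions, or 20.8%. The share of hosts was 7.56% among the 3160 genes with under 20 kb of interior, 57.4% among those with 50 to 100 kb and 84.9% among the 126 genes with 500 kb or more.

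Relative to length, genes of middle size were the densest and the longest genes were as sparse as the shortest. The average over all interiors, 488 Mb in total, was 1.37 regions per 100 kb. Pooled densities were 0.950 per 100 kb for interiors under 20 kb, 1.31 for 20 to 50 kb, 1.58 for 50 to 100 kb, 1.63 for 100 to 200 kb, 1.51 for 200 to 500 kb and 0.951 for 500 kb and over. A region has to fit wholly within an interior, which leaves less room in short ones, and the part of this in these values was not tested. Between chromosomes the density ranged between 1.10 per 100 kb on chromosome 12 and 1.56 on chromosome 15. Along the gene, the density was similar in 5 equal parts of the span read in the direction of transcription, at 1.41, 1.46, 1.37, 1.35 and 1.21 per 100 kb. Strand came from the promoter table and was known for 5691 of the 7266 genes, and the median region lay 83.6 kb from the 5′ end of its host.

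**Figure D1:**
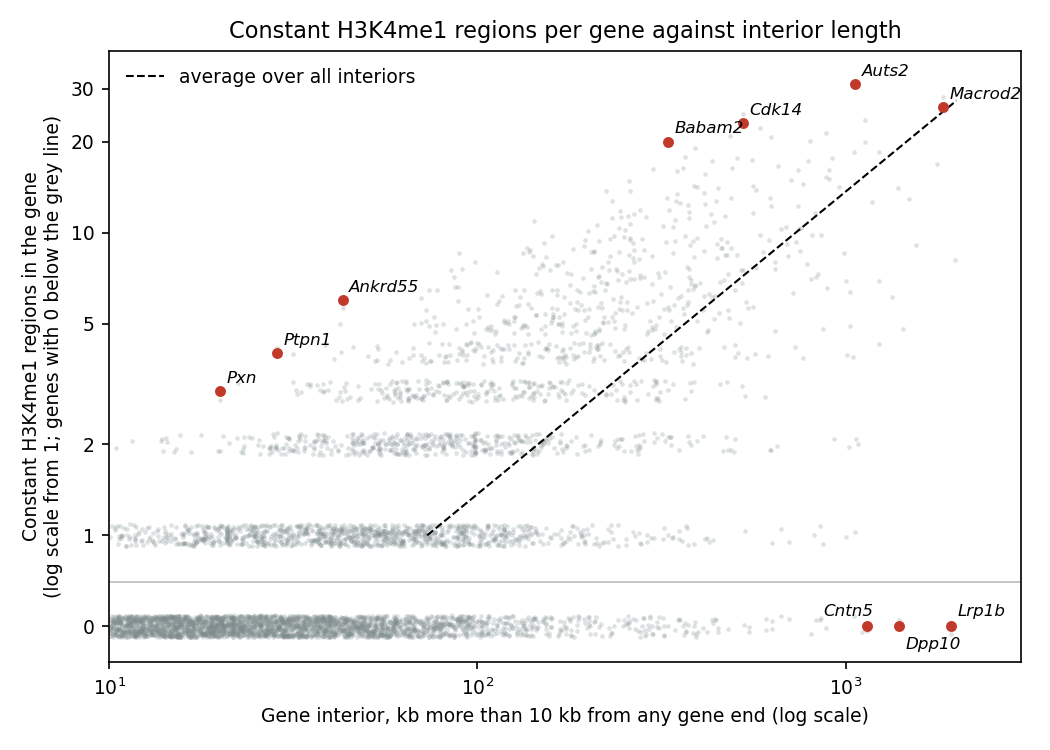
Each point is a protein-coding gene with at least 10 kb of interior, the x axis gives its interior in kb (log scale) and the y axis its number of constant H3K4me1 regions, with a small vertical jitter. The dashed line is the average of 1.37 regions per 100 kb. Babam2 with 20 regions and Cdk14 with 23 stand above it, Macrod2 with 26 lies beside it, and Lrp1b, Dpp10 and Cntn5 have 0.

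Auts2, which encodes a nuclear protein that joins a Polycomb complex and is linked to neurodevelopment, held the most regions, 31 in 1062 kb of interior (chr5:131437333-132543220) or 2.92 per 100 kb. The median fold enrichment of the 31 regions was 4.61 and 4.46 in KO and 5.08 and 4.73 in WT. Macrod2, which encodes an ADP-ribosyl hydrolase, followed with 26 regions in 1839 kb, or 1.41 per 100 kb, near the average for all genes. Pde4d, which encodes a cAMP phosphodiesterase, had 25. Cdk14, which encodes a cyclin-dependent kinase of Wnt signalling, had 23 in 527 kb, or 4.36 per 100 kb. The cell surface proteoglycan gene Gpc6 had 22. Tenm4, a teneurin gene, and Arhgap24, which encodes a GTPase-activating protein for Rac, had 21 each. Babam2, which encodes a subunit of the BRCA1-A and BRISC complexes, Rad51b, which encodes a recombination protein, Lrmda and Opcml had 20 each.

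Of the remaining genes among the 15 with most regions, Dnm3, which encodes a dynamin, Tenm3 and Magi2, which encodes a membrane scaffold protein, held 19 each, and Dlc1, which encodes a GTPase-activating protein of focal adhesions, held 18. Their densities spanned a wide range, as Babam2 reached 6.06 per 100 kb, Dlc1 4.93 and Dnm3 4.88, whereas Macrod2 (1.41), Magi2 (1.54), Tenm3 (1.69) and Opcml (1.90) were below 2 per 100 kb. An H3K4me3 peak lay at a gene end in all 4 libraries for 5 of the 15 genes, Cdk14, Babam2, Rad51b, Dnm3 and Dlc1. In 4 of them, Pde4d, Arhgap24, Tenm3 and Magi2, no library had one. Among all protein-coding genes 35.9% had H3K4me3 at an end in all 4 libraries and 44.1% in none.

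Ranked by density among hosts with at least 3 regions, shorter genes came first. This ranking favours short interiors, where 3 regions already give a high value. Pxn, which encodes paxillin, the adaptor protein of focal adhesions, held 3 regions in 19.99 kb of interior, or 15.0 per 100 kb (chr5:115491970-115555987). Ptpn1, which encodes the tyrosine phosphatase PTP1B, held 4 in 28.6 kb (14.0 per 100 kb) and Ankrd55 held 6 in 43.1 kb (13.9 per 100 kb). Hsd11b1, which encodes the enzyme that regenerates active glucocorticoid, held 3 (13.4 per 100 kb). Scap, which encodes the escort protein of SREBP transcription factors, held 4 (12.6 per 100 kb). Tpst1, Pacsin2, Fam169b, Dync1i2 and Sh3bp5 followed, between 11.8 and 9.39 per 100 kb. Of these 10 genes, Scap, Pacsin2 and Dync1i2 had H3K4me3 at a gene end in all 4 libraries (35.9% of all protein-coding genes did) and 6 had none in any (44.1% did).

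In most of the 10 densest hosts the median fold enrichment over the local background was below that of all regions, while the median pileup was not. In 7 of the 10 genes the median fold was below the median over all 6683 regions in all 4 libraries. The same count over all hosts was not made, so this cannot be called a trait of dense hosts. In Hsd11b1, Scap and Fam169b the median fold was not below it in every library. Median pileups over all regions were 23 and 21 fragments in KO and 24 and 23 in WT. Those of Pxn, Ptpn1, Ankrd55, Scap, Tpst1, Pacsin2 and Sh3bp5 were higher in all 4 libraries. Those of Hsd11b1, Fam169b and Dync1i2 were not higher in every library. The 3 regions of Pxn had medians of 2.92 and 3.32 in KO and 2.87 and 3.68 in WT. The 6 regions in Ankrd55 had median fold enrichments of 3.75 and 3.67 in KO and 3.68 and 3.79 in WT, and the genotypes overlapped. The 4 regions in Ptpn1 had 4.61 and 3.89 in KO and 3.41 and 3.09 in WT, while their median pileups of 37.5 and 30.5 fragments in KO and 35.5 and 27 in WT overlapped. Pxn also had one strong region, whose fold enrichments of 7.42 and 5.64 in KO and 6.65 and 6.67 in WT were the highest of the gene.

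At the other end stood very long genes with no constant region at all. Lrp1b, which encodes a large receptor of the LDL receptor family, had 0 in 1934 kb of interior (chr2:40595290-42653598), and Dpp10, which encodes an auxiliary subunit of potassium channels in neurons, had 0 in 1400 kb. Cntn5, Csmd3, Galntl6, Cntnap5a, Sntg1, Thsd7b, Dpp6 and Nell1 completed the 10 longest such interiors, the shortest of which was 807 kb. In Cntnap5a and Sntg1 not a single list had a peak deep in the gene, and in Csmd3 there were 13 regions, all in fewer than 4 lists. In 8 of the 10 genes no H3K4me3 peak lay at a gene end in any library, Csmd3 had one in both WT libraries and Galntl6 in WT replicate 1. Of all genes with no constant region and at least 50 kb of interior, 46.3% had none in any library.

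Runs of regions occurred within single genes. The densest was in Babam2, with 10 regions within 96.7 kb at chr5:31792159-31888874. Runs of 9 regions lay in Dnm3 (chr1:162036993-162124656, 87.7 kb), in Frmd4a (chr2:4282327-4362863, 80.5 kb), in Stard13 (chr5:151069112-151165316, 96.2 kb) and in Runx2 (chr17:44650279-44739168, 88.9 kb). Frmd4a encodes a scaffold protein of cell polarity, Stard13 a GTPase-activating protein related to Dlc1, and Runx2 the transcription factor that directs bone formation. The first region of the gene, read from its 5′ end, lay at 13.8 kb in Dnm3, at 76.1 kb in Runx2 and at 205 kb in Frmd4a.

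**Figure D2:**
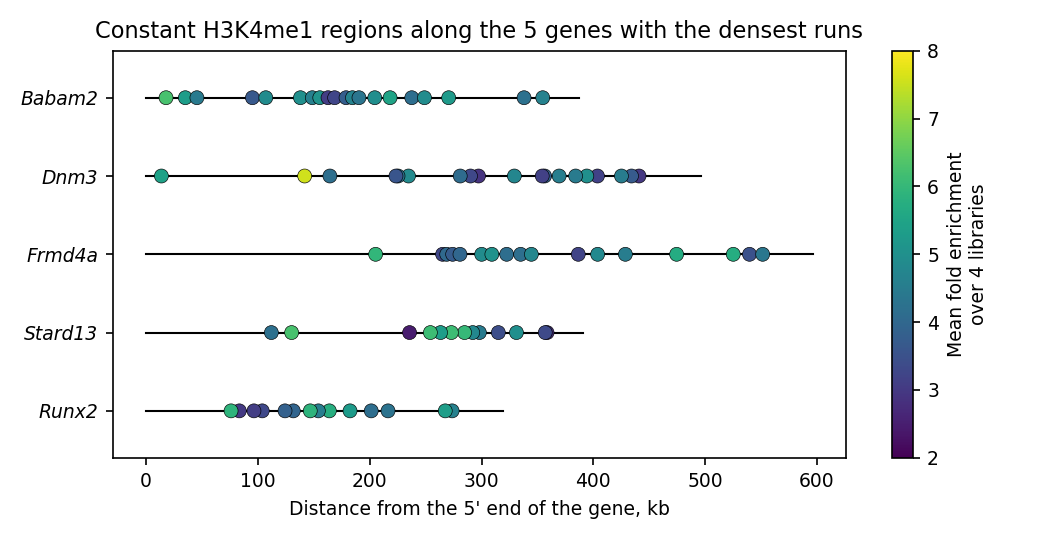
Circles mark the constant H3K4me1 regions along Babam2, Dnm3, Frmd4a, Stard13 and Runx2, the x axis is the distance in kb from the 5′ end of the gene, the black line is the span of the gene and the colour is the mean fold enrichment over the 4 H3K4me1 libraries. The runs of 10 regions in Babam2 and of 9 in each of the other genes appear as crowded circles.

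The hosts were also read by 9 gene lists, which were chosen with earlier results of these data known and so describe the hosts without testing them. Extracellular matrix genes that fibroblasts secrete held 2.89 regions per 100 kb of summed interior, against 1.37 over all genes, and 13 of the 20 with an interior were hosts. Longer genes are hosts more often, and among genes with at least 50 kb of interior 11 of 13 were, where 68.3% of all genes of that size were. Ltbp1, which encodes a protein that anchors latent TGF-β in the matrix, held 12. The basement membrane collagen gene Col4a2 held 8 in 89.2 kb, or 8.97 per 100 kb, and Adam12, which encodes a metalloproteinase, and Fbn1, which encodes fibrillin, held 7 each. The fibrillar collagen genes Col1a2 and Col3a1, with short interiors of 15.9 and 18.2 kb, held 0, and so did the fibronectin gene Fn1 with 47.8 kb. Longer interiors were empty too, in Col12a1 with 102 kb and Col6a3 with 57.1 kb. Loxl2 and Sparc were the remaining genes of the list with 0.

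Transcription factors of mesenchymal cells were hosts in 26 of 29 cases, at 2.26 regions per 100 kb. Most of these genes had at least 50 kb of interior, and of those 27 genes 26 were hosts, where 68.3% of all genes of that size were. Runx2 held 14, or 5.42 per 100 kb. Foxp1 held 12, Gli3, which encodes an effector of Hedgehog signalling, held 11, and Tcf4, which encodes a basic helix-loop-helix factor, also held 11. In Runx2 the median fold enrichment over its 14 regions was 4.59 and 4.14 in KO and 4.09 and 4.77 in WT, with the genotypes overlapping. Prrx1, Nfix and Tbx18 held 0.

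Signalling lists gave densities between 1.68 and 2.79 per 100 kb. Of 14 Hippo and Wnt genes with an interior 10 were hosts, at 2.79 per 100 kb. Gpc6 held 22, the Hippo coactivator gene Wwtr1 held 6 (7.72 per 100 kb) and Lrrfip1 held 5. Actin, adhesion and small GTPase signalling genes were hosts in 32 of 41 cases (2.17 per 100 kb), led by Arhgap24 with 21, Arhgap26 with 18 and Pard3, which encodes a polarity protein, with 15. Among TGF-β and BMP genes 13 of 19 were hosts (1.98 per 100 kb), with 4 regions each in the receptor genes Acvr1 and Bmpr1b. Growth factor receptor genes were hosts in 12 of 19 cases (1.68 per 100 kb), with 8 in the growth hormone receptor gene Ghr and 7 in Erbb4, a neuregulin receptor gene.

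Long neural genes were the sparsest list at 0.631 per 100 kb, and 25 of 37 were hosts (67.6%), close to the 68.3% of all genes with at least 50 kb of interior. The list was split, since Macrod2, Tenm4, Opcml and Magi2 held 19 to 26 regions each while 12 genes, Lrp1b and Dpp10 among them, held 0. Tenm4 reached 3.59 per 100 kb. Genes of other lineages (muscle, blood, endothelium and epithelium) had 1.22 per 100 kb with 11 hosts among 20. The calcium channel gene Cacna1c, with 16 regions, and Elmo1, with 10, held most of them. Myom1 held 4, or 3.86 per 100 kb, and Flt1 and Nebl held 2 each. The other hosts, Pecam1, Emcn and Ptprc among them, held 1 each. Among the genes with 0 were Ttn with 259 kb of interior, Cdh1 with 46.9 kb and Cdh5 with 18.6 kb.

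Fbxw7 itself, its substrates and the H3K4 methylation enzymes formed the last list, with 6 hosts among 13 genes and 2.12 regions per 100 kb. Notch2 held 4, Kmt2c held 3, Srebf2 held 2 in 30.9 kb, and Kdm5b and Kmt2a held 1 each, while Kmt2d, the gene of MLL4, held 0 in 22.4 kb. The Fbxw7 gene held 2. The region at chr3:84861149-84861919 had fold enrichments of 4.89 and 4.82 in KO and 3.42 and 3.84 in WT, and pileups of 16 and 16 fragments in KO and 17 and 16 in WT. Both KO folds lay above both WT folds there, as they did in 20.2% of the 6683 regions. The other, at chr3:84935536-84936413, had 6.06 and 7.50 in KO and 5.89 and 7.20 in WT, and there the genotypes overlapped. Among genes with at least 50 kb of interior, the median density per gene was 3.45 for the matrix list, 4.38 for Hippo and Wnt, 2.30 for mesenchymal factors and 0.349 for long neural genes, against 1.25 for all 2353 such genes.

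**Figure D3:**
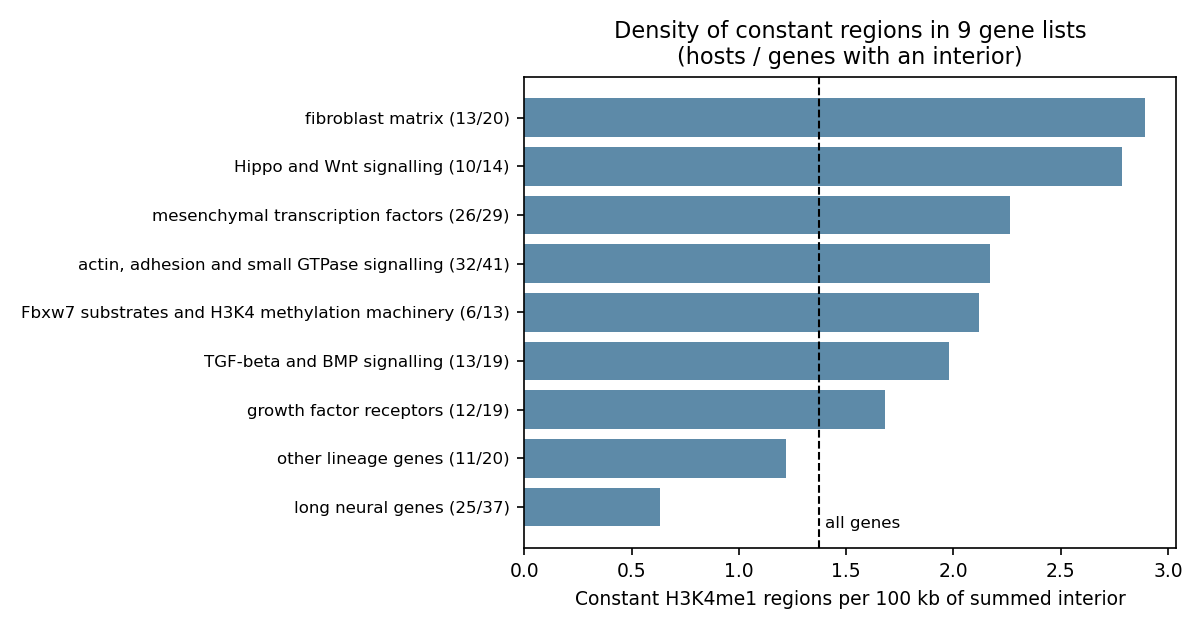
Bars give the constant H3K4me1 regions per 100 kb of the summed interior of each of 9 gene lists, with hosts over genes with an interior in parentheses, and the dashed line is the value for all protein-coding genes, 1.37. Fibroblast matrix genes stand at 2.89 and long neural genes at 0.631.

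Each region had to hold an H3K4me1 peak in both KO and both WT lists, so sites called in KO alone or in WT alone could not enter. Similar values in the genotypes are thus partly built in by this choice, and they do not show that the knockout left H3K4me1 unchanged. Within the regions chosen this way, H3K4me1 was near equal in KO and WT. The fold enrichment of the strongest peak in a region had a median of 4.69 and 4.68 in KO and 4.69 and 4.68 in WT. Peaks covered a mean of 884 and 809 bp of each region in KO and 930 and 874 bp in WT (means of 846 ± 52.8 bp in KO and 902 ± 39.6 bp in WT, SD, n = 2 each). The KO minus WT difference of −55.6 bp was close to the spread between KO libraries, and KO replicate 1 lay above WT replicate 2. The median pileup at the summit was 23 and 21 fragments in KO and 24 and 23 in WT. A −log10 q of at least 10 was reached by 22.2% and 16.1% of the regions in KO and by 26.9% and 21.5% in WT, with the genotypes overlapping and with no adjustment for depth. These measures come from the lists that chose the regions and were not tested.

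To compare heights across libraries, each region's strongest pileup was divided by the median pileup of all peaks in its library. The log2 of this relative pileup averaged 0.289 ± 0.0200 in KO libraries and 0.314 ± 0.0116 in WT libraries (SD, n = 2 each), a difference of −0.03. Both KO libraries lay above both WT libraries in 1340 regions (20.1%), where the same held for 20.8% of all constant regions. Both WT libraries lay above both KO libraries in 1717 regions (25.7%), against 24.7% of all constant regions. The shares were thus near those of constant regions anywhere. The median log2 ratio of KO over WT was −0.03, and its 5th and 95th percentiles were −0.60 and 0.59.

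The regions that stood farthest apart in height, chosen after their values were seen, differed by more than the replicates of either genotype. A region of Dlg2, which encodes a synaptic scaffold protein, at chr7:92140865-92142551 had pileups of 32 and 38 fragments in KO and 12 and 12 in WT, a log2 ratio of 1.63 on the relative scale. A region of Gli3 at chr13:15603038-15604649 had 15 and 17 fragments in KO and 44 and 43 in WT, a log2 ratio of −1.36. A region of Trim3 at chr7:105620936-105622044 had 11 and 9 in KO and 34 and 23 in WT (log2 ratio −1.43). None of the 3 had an H3K4me3 peak in any library, as was so for 94.9% of all 6683 regions. The fold over the local background moved less, as the Gli3 region had 3.48 and 4.27 in KO and 4.72 and 5.52 in WT.

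Constant regions deep in genes were taller in fragments but lower over their surroundings than constant regions outside genes. Their mean log2 relative pileup was 0.303 and 0.274 in KO and 0.322 and 0.305 in WT, against 0.222 and 0.194 in KO and 0.193 and 0.180 in WT for the 5635 intergenic regions. Their median fold enrichment of 4.68 to 4.69 compared with 4.91 and 4.89 in KO and 4.95 and 4.96 in WT for intergenic regions. Each of the 4 libraries showed both orders.

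The best ranked regions were strong in every library. A region of Adgrl3, which encodes an adhesion receptor of neurons, at chr5:81519543-81520567 led with fold enrichments of 7.91 and 7.67 in KO and 8.60 and 10.4 in WT. Next was a region of Ptpn14, which encodes a phosphatase that restrains YAP, at chr1:189799651-189801141, with 8.77 and 9.34 in KO and 8.57 and 7.73 in WT. Regions of Itpr1, Me3, Niban1, Syt16, Usp34, Fbxl13, Lrrc28 and the elastin gene Eln completed the 10. None of the 10 had an H3K4me3 or MLL4 peak in any library. Among all 6683 regions 94.9% had no H3K4me3 peak in any library, and 1 had an MLL4 peak.

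H3K4me3, which the choice of regions did not use, was rare on them, and most of its peaks there were in WT libraries. Of the 6683 regions 8 and 16 (0.120% and 0.239%) had an H3K4me3 peak in KO and 312 and 183 (4.67% and 2.74%) in WT. The shares averaged 0.180% ± 0.0846 in KO and 3.70% ± 1.36 in WT (SD, n = 2 each), a difference of −3.52 percentage points with no overlap between genotypes. The exact two-sided permutation test over the 6 assignments of 4 libraries gave p = 0.33, the smallest it can give, so the difference cannot pass 0.05. The WT lists were longer. The KO peaks had median lengths of 544 and 583 bp and the WT peaks 1218 and 1059 bp, and WT replicate 1 had more fragments, with duplicates limited to 2 per position there and to 1 in the other H3K4me3 lists. With every list cut to its best 10406 H3K4me3 and 53125 H3K4me1 peaks, 4 and 11 of 6191 regions (0.0646% and 0.178%) had an H3K4me3 peak in KO and 21 and 20 (0.339% and 0.323%) in WT, a difference of −0.21 percentage points. The part of list length, depth and duplicate handling in the rest was not tested.

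No H3K4me3 peak in any library lay on 6339 of the regions (94.9%). On 133 regions the WT pair had one and the KO pair had none (1.99%), where the same pattern held for 3.26% of all merged H3K4me1 regions and 2.6% of all constant ones. Both of those sets include regions at gene ends, where H3K4me3 was more frequent and which the position rule left out here. The reverse, both KO and neither WT, held for 0 regions and for 0.00798% of all merged regions. WT replicate 1 alone had a peak on 159 regions and WT replicate 2 alone on 31. The H3K4me3 peaks in these regions were short, with median lengths of 362 and 362 bp in KO and 567 and 455 bp in WT. They were 8 of 8292 and 16 of 9020 H3K4me3 peaks of the 15 autosomes in KO and 315 of 13754 and 183 of 12697 in WT.

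The best ranked of the 133 regions lay in Gpc6 at chr14:117930162-117931557. It had H3K4me1 fold enrichments of 6.97 and 6.53 in KO and 7.90 and 7.84 in WT. The next were in Exoc1, which encodes an exocyst subunit, at chr5:76539518-76541043, in Aopep at chr13:63046049-63047566, in Dnah2, which encodes an axonemal dynein, at chr11:69452013-69453177 and in Rgs22 at chr15:36015663-36016964. H3K4me1 of the Exoc1 region was 7.29 and 6.37 fold in KO and 7.81 and 7.59 in WT, with pileups of 24 and 20 fragments in KO and 24 and 22 in WT. In Dnah2 the folds were 6.08 and 8.36 in KO and 7.32 and 5.84 in WT, and the genotypes overlapped.

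**Figure D4:**
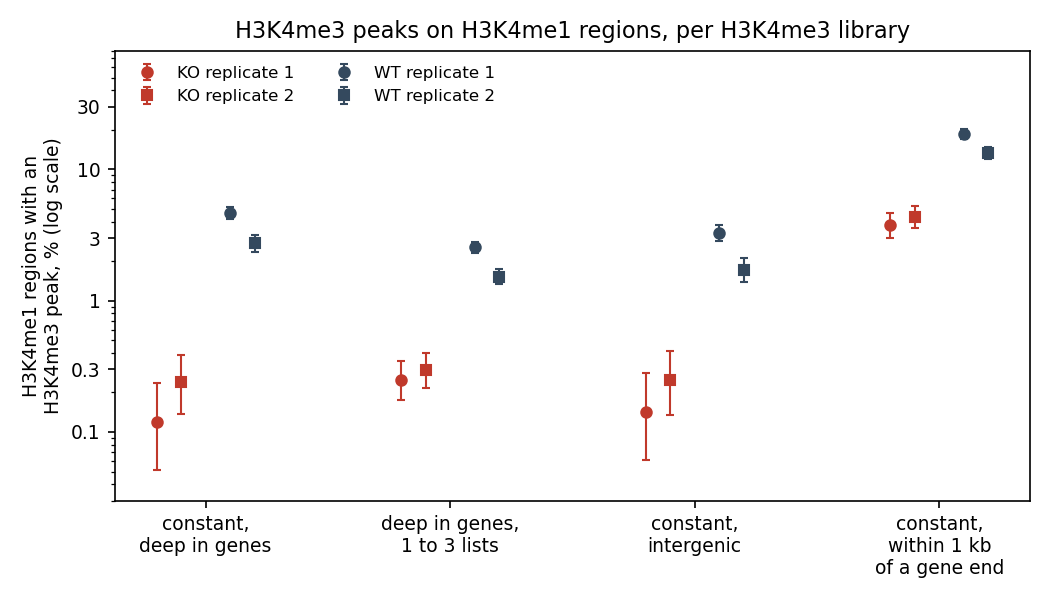
Points give the share of H3K4me1 regions with an H3K4me3 peak in % (log scale) for each H3K4me3 library, KO in red and WT in dark blue, for 4 classes of H3K4me1 region. Bars are 95% confidence intervals by the exact Clopper-Pearson method, for counting error alone. For constant regions deep in genes both KO libraries, at 0.120% and 0.239%, lie below both WT libraries, at 4.67% and 2.74%.

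The same shares were taken over other classes of H3K4me1 region. The intergenic constant regions had shares of 0.142% and 0.248% in KO and 3.30% and 1.72% in WT. Deep minus intergenic averaged 0.588 percentage points over the 4 libraries, with both KO differences below 0 and both WT differences above it, and the exact two-sided sign-flip permutation test gave p = 0.5 (the smallest it can give is 0.13). With lists of equal length the mean was 0.0400 percentage points. With a limit of 5 kb, with ends of protein-coding genes alone or on all 19 autosomes, all 4 differences were positive, with means of 0.735, 0.821 and 0.694 percentage points (p = 0.13 each in the exact permutation test). Without WT replicate 1 the mean was 0.256 percentage points. Deep regions of 1 to 3 lists had 0.250% and 0.299% in KO and 2.55% and 1.53% in WT. Constant regions within 1 kb of a gene end had far more, with 3.75% and 4.36% in KO and 18.6% and 13.3% in WT.

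Only 3 of the deep regions had H3K4me3 in all 4 libraries, and they lay in Frem3, Sgcd and Tcaf1. Sgcd encodes a sarcoglycan of the dystrophin complex and Frem3 an extracellular matrix protein. The Sgcd region at chr11:47377876-47378662 had H3K4me1 fold enrichments of 3.35 and 3.45 in KO and 3.99 and 4.58 in WT. The Tcaf1 region lay at chr6:42691145-42692277.

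MLL4 peaks met the regions at a single place. The MLL4 lists held 36 and 30 peaks in KO and 43 and 51 in WT on the 15 autosomes, and in each library 1 of the 6683 regions had one. It was the same region each time, in Frem3 at chr8:80640479-80640983. MLL4 fold enrichment there was 13.0 and 11.99 in KO and 10.5 and 12.2 in WT, H3K4me3 fold enrichment was 12.9 and 13.6 in KO and 8.06 and 11.1 in WT, and H3K4me1 fold enrichment was 6.50 and 8.37 in KO and 5.60 and 4.70 in WT. The region thus had a peak in all 12 lists, within 505 bp, and the lists were called with no control library. No list of artefact-prone sites was used here, and whether the signal there depends on the antibody was not tested. With lists this short, a missing MLL4 peak says only that the site did not pass the cutoff.

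The share of genes with H3K4me3 at a gene end was larger among hosts than among other long genes in all 4 libraries, in a design too small to pass 0.05. A gene was scored on a window of 1 kb on each side of both ends of its span, and promoters inside the span were not scored. Over all 2401 hosts the share was 47.8% and 52.6% in KO and 74.1% and 71.0% in WT (50.2% ± 3.36 in KO and 72.6% ± 2.18 in WT, SD, n = 2 each). The difference of −22.4 percentage points had p = 0.33 in the exact two-sided permutation test, the smallest it can give. Over all 16948 protein-coding genes the shares were 39.1% and 41.7% in KO and 55.7% and 53.3% in WT. With lists of equal length the difference for hosts was −8.02 percentage points. Both WT libraries, with no KO library, had H3K4me3 at a gene end in 320 hosts (13.3%), where 8.38% of all protein-coding genes did. Among genes with at least 50 kb of interior, this pattern held for 14.6% of hosts and for 12.2% of genes without a region. All 4 libraries had H3K4me3 at a gene end in 1024 hosts (42.6%), where 41.4% of all genes with an interior and 35.9% of all protein-coding genes did. The reverse pattern, both KO and neither WT, was found in 0 hosts and in 0.0% of all genes.

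Since long genes hold more regions, hosts were compared with genes without a region among the 2353 genes with at least 50 kb of interior. There 45.3% and 50.7% of 1608 hosts had H3K4me3 at a gene end in KO and 73.8% and 70.5% in WT. Among the 745 genes with no region the shares were 30.5% and 32.5% in KO and 53.3% and 48.7% in WT. Hosts exceeded the others by 14.8 and 18.2 percentage points in KO and by 20.5 and 21.8 in WT. The mean difference was 18.8 percentage points, positive in 4 of 4 libraries, with p = 0.13 in the exact two-sided sign-flip permutation test, the smallest it can give. With at least 100 kb of interior it was 32.5 percentage points, and with lists of equal length 17.1. With no minimum on the interior it was 7.94 percentage points, at 3.48 and 5.39 in KO and 11.7 and 11.2 in WT, as 4865 genes without a region then entered. The excess of hosts differed between KO and WT by −4.63 percentage points, with p = 0.33 in the exact permutation test. With lists of equal length this difference was −0.68 percentage points (exact permutation p = 0.67).

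Among the same genes with at least 50 kb of interior, the share climbed with the density of regions in each of the 4 libraries. In KO replicate 1 it was 30.5% in genes with no region, 36.5% at up to 1 per 100 kb, 42.1% at 1 to 2, 49.9% at 2 to 4 and 55.7% above 4. KO replicate 2 went through 32.5%, 41.3%, 47.2%, 55.5% and 62.2%. In WT the successive values were 53.3%, 66.9%, 71.1%, 77.1% and 83.1% in replicate 1 and 48.7%, 63.1%, 67.8%, 74.4% and 79.6% in replicate 2. The classes differed in median interior, at 79.7, 213, 94.5, 116 and 88.2 kb, with the lowest and the highest class close to each other. Genes without H3K4me3 at an end in any library made up 46.3% of the class with no region and 16.4% of the densest class. These shares are over genes within a library and are given with no test.

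**Figure D5:**
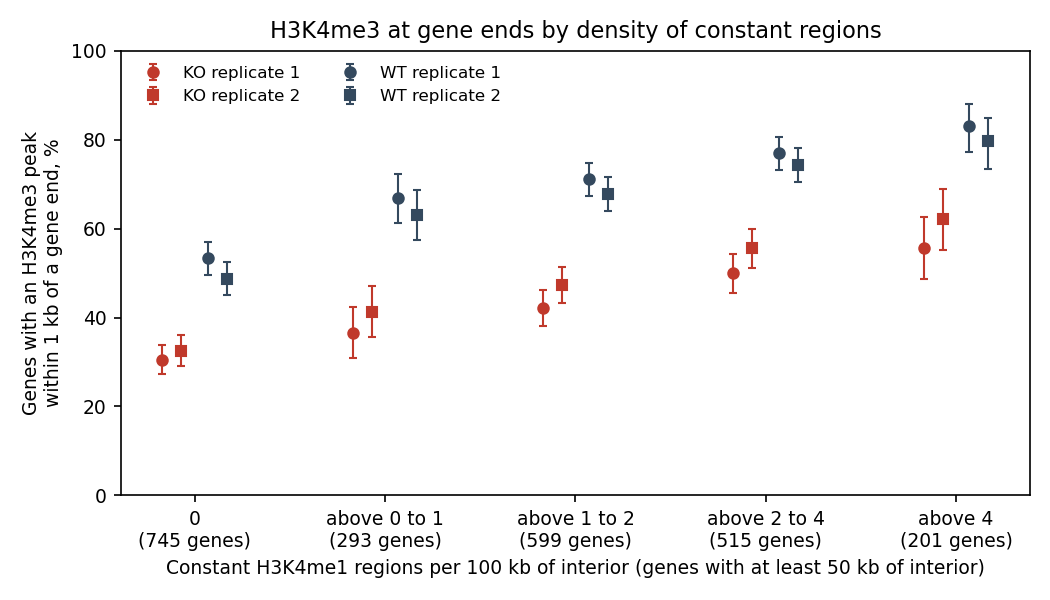
The y axis is the share of genes, in %, with an H3K4me3 peak within 1 kb of a gene end, for each H3K4me3 library (KO in red, WT in dark blue), and the x axis groups genes with at least 50 kb of interior by their density of constant H3K4me1 regions. Bars are exact Clopper-Pearson 95% intervals. Within every library the share is lowest with no region, 30.5% in KO replicate 1, and highest above 4 per 100 kb, 55.7% there.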

How the data were processed

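Cut & Run peak lists of 12 libraries were used and grouped by sample title. The build was mm10 per the submitters' processing notes, which also name HOMER 4.10, deepTools, MACS2, bedtools, SAMtools 1.5 and Bowtie2 without their roles. Peaks were called, per the file headers, for each library alone with MACS2 2.1.0.20150731 at a q cutoff of 0.01 with no control library. Each deposited list gives the pileup signal at the summit, which the authors did not scale to depth. Each deposited list also gives −log10 p-values and q-values and a fold ratio over the local background. Duplicates were limited to 2 per position in the H3K4me1 lists and in H3K4me3 of WT replicate 1, and to 1 in the other lists, per the file headers. Because a cutoff keeps weaker sites in a deeper library, a missing peak means only that a site did not pass.

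Gene spans, starts and sequences came from RefSeq tables of GRCm38.p6, whose coordinates are those of mm10, and strand came from the promoter table. A region's value in a library is that of its strongest peak. Shares of regions or genes were computed per library and compared with exact permutation tests over libraries, and intervals cover counting error only. Python 3.11.15, NumPy 2.4.6, pandas 2.3.3, SciPy 1.17.1 and Matplotlib 3.10.9 were used, and the procedure was tested on simulated data. The regions and gene lists were chosen with earlier results of these data known. Named were the 15 hosts with most regions, the 10 densest with at least 3, the 10 longest interiors with none, the 10 best regions by the lowest of their 4 percentiles of fold, those beside the 10 kb limit (1 of which is not reported here), list examples with most regions (list genes with 0 were named after their values were seen), regions with MLL4 or H3K4me3 in all 4 libraries, and the 5 densest runs within 100 kb. Alternatives changed the q cutoff, the distance, the cover, the window, the chromosomes, the list lengths and the libraries used.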

Additional observations from a re-analysis of the deposited data

How the results depend on the processing

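A stricter −log10 q of at least 5 left 3708 constant deep regions, and asking peaks to cover 50% of a region in each list left 2896 regions in 1489 hosts. On all 19 autosomes the KO minus WT difference in log2 relative pileup was −0.0053. The cause was not tested. Leaving out 1 library at a time gave 7153 to 7789 regions and 2483 to 2629 hosts, because fewer lists had to agree. It gave differences between KO and WT of −96.5 to −17.2 bp in bases covered and of −0.0492 (without KO replicate 1) to −0.0061 (without WT replicate 1) in log2 relative pileup. The difference in H3K4me3 on the regions was then −4.32 to −2.38 percentage points and at host gene ends −25.2 to −19.7. Deep minus intergenic regions then gave 0.256 to 0.928 percentage points, hosts minus other genes 17.6 to 20.8, and the KO minus WT difference of the last −8.50 to −2.70. Of all alternative values 6 moved, and none of the tested differences turned its sign, but their sizes did change. With lists of equal length the KO minus WT difference in H3K4me3 was −0.21 percentage points on the regions and −8.02 at host ends, deep minus intergenic was 0.0400, and the genotype difference in the excess of hosts was −0.68. That difference ranged between −8.55 (stricter q) and −0.68 over the alternatives that kept all libraries. With the replicate number as a block the differences were −3.52, −22.4 and −4.63 percentage points, with p = 0.5 in the exact permutation test, the smallest it can give. The labels do not say that the numbers pair libraries, and same-numbered H3K4me1 libraries deviated with r = −0.00733 over 22021 constant regions. Each genotype has 2 libraries per antibody, so no genotype comparison could pass 0.05, and peaks near the cutoff limit the regions called constant.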
